A study of Mus musculus with 4 samples.

Results

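The genes described are the 107 genes of the respiratory chain and ATP synthase that the 4 libraries list, out of 14561 genes listed in any of them. They were chosen by the start of the name alone (Nduf, Uqcr, Atp5, Sdha to Sdhd, Cox4 to Cox8, mt-Nd, mt-Co, mt-Cytb and mt-Atp), with no measured value. The prefixes also take in assembly factors such as Ndufaf3 and Sdhaf1. Of these, 94 are encoded in the nucleus and 13 in the mitochondrial genome. By complex, the nuclear genes comprise 44 of complex I, 8 of complex II, 8 of complex III, 18 of complex IV and 16 of complex V, and the mitochondrial genes 7, 0, 1, 3 and 2. Ndufa4 and Ndufa4l2 were counted with complex IV, where the NDUFA4 protein sits, although their names carry the Nduf prefix.

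The libraries hold single cells from dissociated mouse lung, captured with the 10x 3' chemistry after flow sorting, 1 library for each of 4 groups. All animals came from a mixed FVB/C57BL6 background, carried Sftpc-CreER, the Rosa26-Zsgreen reporter and Hopx-RFP, and had been given tamoxifen, so these alleles and this drug are shared by every group. Alveolar type I (AT1) cells, the thin epithelial cells of gas exchange, came from animals of 3 (P3), 15 (P15) and 60 (P60) days after birth and were gated as positive for RFP and Pdpn and negative for GFP and CD45. Alveolar type II (AT2) cells, which make surfactant, came from P60 animals and were gated as GFP positive and CD45 negative. The green label marks cells in which Sftpc drove the recombinase. How many animals were pooled into a library is not known here. For the AT1 sorts the enzymes were elastase and type I collagenase on top of the neutral protease and DNase I that also served for the AT2 sort, so cell type and digestion cannot be told apart.

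The electron transport chain sits in the inner mitochondrial membrane. Complexes I and II feed electrons from NADH and succinate into ubiquinone, complex III passes them to cytochrome c, complex IV reduces oxygen, and complex V uses the resulting proton gradient to make ATP. Complex II is built from nuclear genes alone, while the other complexes join nuclear subunits with a few hydrophobic subunits made inside the organelle, so that a working complex needs transcripts of both genomes. AT2 cells are known as the metabolically active, mitochondrion-rich cells of the alveolar epithelium, and AT1 cells as thin cells with few organelles.

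Values are given for the class of the sorted type in each library, which held 2845 of 3149 cells at P3, 2655 of 2940 at P15, 1180 of 1337 at P60 and 1685 of 2093 AT2 cells, with 22697358, 13792359, 6395573 and 8631199 UMIs. Levels are in CPM, the UMIs of a gene scaled to the common total of UMIs in the class. The class median was 7294, 4937, 5348.5 and 5006 UMIs per cell, and libraries shared 3 to 15 cell barcodes. All 18 AT1 markers were listed in each AT1 class, at a summed 38987, 65760 and 56999 CPM, and all 16 AT2 markers in the AT2 class, at 267348 CPM. The AT1 markers came to 3280 CPM in the AT2 class, and the AT2 markers to between 578 and 684 CPM in the AT1 classes. Endothelial, fibroblast, pericyte and smooth muscle, and immune markers (without Lyz2) each stayed between 0.579 and 93.4 CPM in every class. Airway and mesothelial lists were higher: club cell markers came to 1107, 295 and 1150 CPM in the AT1 classes and 5382 CPM in the AT2 class, ciliated cell markers, which share Sec14l3 with the AT1 list, to 1653, 2482, 2747 and 145 CPM, and mesothelial markers, which include Krt19, to 1361, 1292, 826 and 43.0 CPM. Their part in the results was not tested. With 1 library per group there is no replicate error and no test was made. Intervals are 95% exact Poisson or binomial intervals, and they cover counting error only. Because the chemistry counts transcript ends, levels of different genes in CPM do not scale with gene length.

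The summed nuclear genes took 27334 CPM at P3, 25988 at P15 and 21352 at P60 in AT1 cells and 26212 CPM in AT2 cells. The mitochondrial genes took 22009, 30616 and 30551 CPM in the 3 AT1 classes and 59635 CPM in the AT2 class. The nuclear sum was the larger at P3, and the mitochondrial sum at P15, at P60 and in AT2 cells. A quantity that needs no scaling between libraries is the number of mitochondrial UMIs per nuclear UMI. It was 0.805 (0.802 to 0.808) at P3, 1.18 (1.17 to 1.18) at P15, 1.43 (1.42 to 1.44) at P60 and 2.27 (2.26 to 2.29) in AT2 cells. The ratio of the whole class was thus higher at each later AT1 age and highest in the AT2 class. The intervals did not overlap, but they cover counting error only. Clusters within a class ran from 0.741 to 0.884 at P3, from 0.889 to 2.39 at P15 and from 0.954 to 5.22 at P60. The 2 AT2 clusters were at 2.25 and 2.29. The ranges at P15 and P60 therefore overlapped, and the order of the ages does not hold for every cluster.

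Within the nuclear genes, the complexes did not keep their proportions with age. For each UMI of a complex I subunit, AT1 cells had 0.893 UMIs (0.887 to 0.899) of complex V subunits at P3, 0.703 (0.696 to 0.709) at P15 and 0.582 (0.574 to 0.590) at P60, and AT2 cells had 0.757 (0.749 to 0.765). For complex IV the numbers were 0.973, 0.895, 0.708 and 0.798, and for complex III 0.335, 0.311, 0.283 and 0.348. Complex II, the smallest pool, stayed at 0.0448, 0.0462 and 0.0464 in AT1 cells, within counting error between P15 and P60, and was 0.0368 (0.0354 to 0.0382) in AT2 cells. Complex I subunits accordingly made up 29.8% of all nuclear UMIs of the chain at P3, 33.1% at P15, 37.3% at P60 and 32.9% in AT2 cells. These proportions describe 1 library each, and a proportion between complexes cannot say which of them differed in amount.

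**Figure D1:**
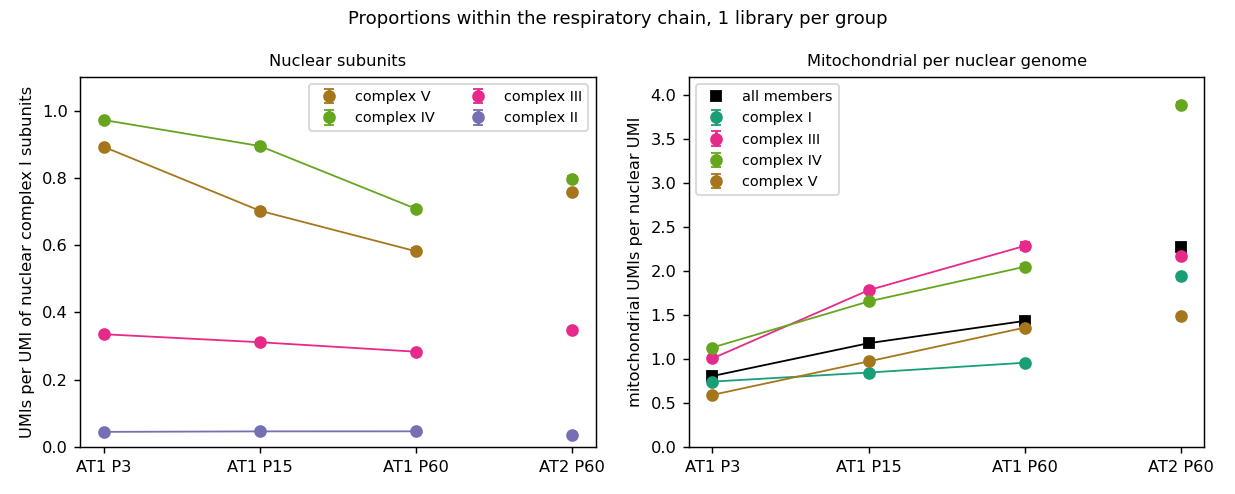
Left, UMIs of nuclear subunits of complexes II to V per UMI of a nuclear complex I subunit; right, mitochondrial UMIs per nuclear UMI for all genes and by complex. The x axes give the 4 libraries, lines join the 3 AT1 ages, and the 95% counting intervals are mostly smaller than the points. Complex V against complex I went from 0.893 to 0.582 over the AT1 ages, and the mitochondrial ratio for all genes was 0.805, 1.18, 1.43 and 2.27.

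Between P3 and P15, the nuclear sum differed little, at a ratio of 0.951 (0.947 to 0.955), and the mitochondrial sum was 1.39 times as high (1.39 to 1.40). Of 92 nuclear genes with at least 30 UMIs over both libraries, 44 were higher and 48 lower at P15, with a median log2 ratio of -0.02 beside 0.12 for all 4882 genes tested. A gene was tested when it had 30 UMIs over both libraries and a mean of 25 CPM, which 81 of 94 nuclear genes reached. None was at least 2-fold higher, where 7.29% of all tested genes were, and 1, Cox7a2l, was at least 2-fold lower, where 5.2% of all were. At 1.5-fold, 1 was higher and 3 were lower, where 18.9 and 10.5% of all genes were. Complex V was the exception among the complexes, with 13 of 15 subunits lower and a summed ratio of 0.831 (0.825 to 0.838). In the opposite direction, all 7 nuclear core subunits of complex I, which form the arm that carries its flavin and iron-sulphur centres, were higher at P15 (Ndufv2 and no other turned under 1 of 4 scalings), with a summed ratio of 1.23 (1.21 to 1.26).

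Between P15 and P60 the nuclear sum was lower, at a ratio of 0.822 (0.817 to 0.827), and 64 of 92 genes were lower, while the mitochondrial sum stood at 0.998 (0.993 to 1.003). Of the 92 nuclear genes, 63 lay below the median of all tested genes. With Malat1 left out of the total, 46 of 92 were lower, and the median nuclear log2 ratio was 0.006 beside 0.16 for all tested genes. Among these genes, all 8 subunits of complex III, all 11 of complex IV and all 15 of complex V were lower at P60. Their summed ratios were 0.841, 0.732 and 0.766, and every one of these subunits also lay below the median of all tested genes. With Malat1 left out of the total, the complex IV subunits all stayed lower, but not all of those of complexes III and V did. Complex I was at 0.925, and its direction turned when Malat1 was left out of the total. Assembly factors went the other way, with 11 of 12 higher and a summed ratio of 1.23 (1.166 to 1.297). None of the 81 tested nuclear genes was 2-fold apart, where 3.55% of all 5122 tested genes were at least 2-fold higher and 3.46% lower. At 1.5-fold 1 was higher and 5 were lower, where 11.9 and 10.4% of all genes were.

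Over the whole span from P3 to P60 the nuclear sum was 0.781 times as high (0.777 to 0.786), a log2 ratio of -0.36, and the median nuclear gene was at -0.19 where the median of all 5055 tested genes was 0.14. With Malat1 left out of the total, these medians were 0.002 and 0.34. At least 2-fold lower at P60 were 5 of 80 tested nuclear genes (6.25%) against 7.52% of all tested genes, and none was at least 2-fold higher against 11.2% (2 lower and 1 higher with Malat1 left out of the total), so the count of large differences was not above that of the transcriptome. At 1.5-fold, 16 of 80 (20%) were lower against 14.1% of all, and 4 of 80 (5.0%) higher against 24.4%. Complex V held 7 of those 16 genes, or 7 of its 15 subunits, all of which were lower at P60. The summed ratios were 0.637 (0.629 to 0.645) for complex V, 0.712 (0.704 to 0.720) for complex IV, 0.826 for complex III, 1.01 for complex II and 0.977 for complex I. Malat1, a nuclear RNA, took 4.27, 6.68 and 16.0% of the UMIs in the 3 AT1 classes and ribosomal protein transcripts took 19.9, 7.24 and 4.66%, so both differed with age and their part in the sums was not tested. The directions for complexes III, IV and V held under every scaling tried, that for complex I turned without Malat1, and that for complex II turned under 3 of 4 scalings.

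Ordered by age, 13 of 15 complex V subunits were lower at each step, 12 of them beyond counting error at both steps. Also lower at each step were 7 of 11 complex IV subunits (all 7 beyond counting error), 5 of 8 of complex III (2 beyond it) and 9 of 36 of complex I (6 beyond it). In complex I, 8 of 36 were higher at each step, 3 of them beyond counting error. These counts were made on the total UMIs alone, and the share over all genes was not computed. No subunit of complexes III, IV or V was higher at both steps. The 3 AT1 comparisons share libraries with each other, and the adult comparison shares the P60 AT1 library with 2 of them, so a single unusual library would appear in more than 1 ratio.

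**Figure D2:**
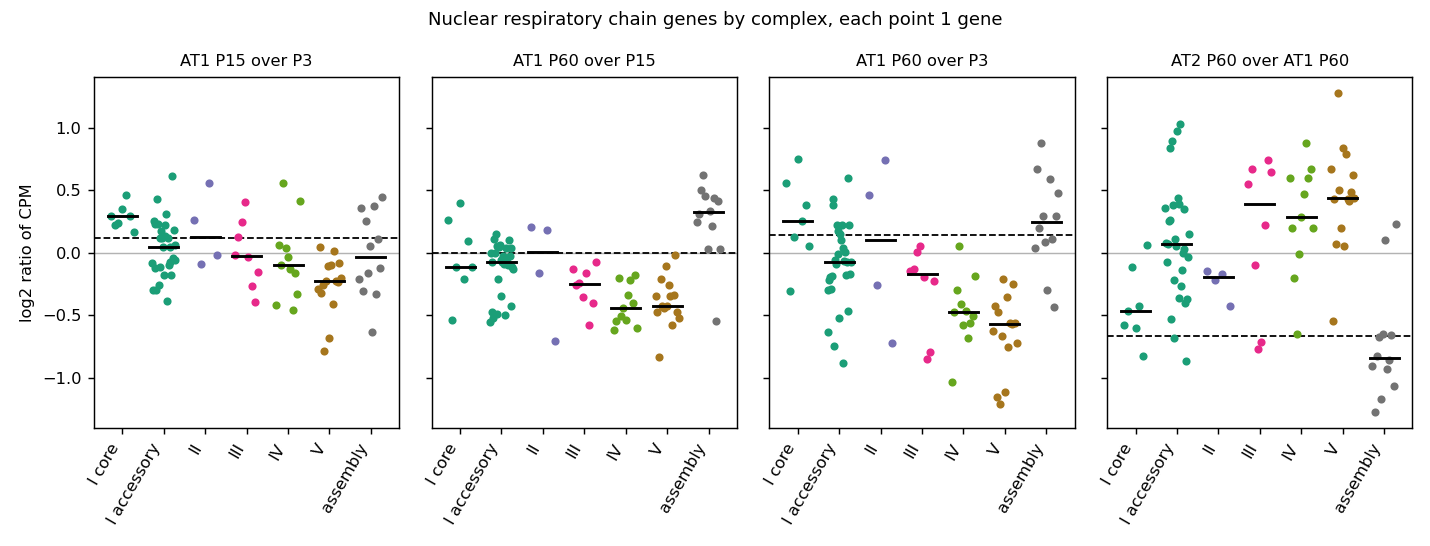
Log2 ratio of CPM (y axis) of each nuclear gene in the 4 comparisons, grouped on the x axis by complex, with assembly factors last. Each point is 1 gene, the bar is the median of the group and the dashed line the median of all tested genes. All 15 complex V subunits lie below 0 for P60 over P3, and 14 of 15 lie above 0 for AT2 over AT1.

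In complex V, the ATP synthase, the largest differences were in 3 of its subunits. Atp5e, the epsilon subunit of the rotor stalk, stood at 916, 533 and 398 CPM at P3, P15 and P60 and at 962 CPM in AT2 cells. Its P60 level was 2.31-fold lower than at P3 (2.21 to 2.403), and the AT2 level 2.42-fold higher than in P60 AT1 cells (2.31 to 2.53). Atp5c1, the gamma subunit that turns inside the catalytic head, was at 326, 261, 147 and 197 CPM in the same order, 2.23-fold lower at P60 than at P3 (2.08 to 2.39). Here the larger step lay between P15 and P60, whereas for Atp5e it lay between P3 and P15. Atp5l and Atp5j2, membrane-part subunits that with Atp5e had the highest means of the complex, were at 710, 669, 482 and 743 CPM and at 623, 531, 421 and 562 CPM. Atp5b, the catalytic beta subunit, differed from the others: it was at 621 and 641 CPM at P3 and P15, 463 CPM at P60 and only 318 CPM in AT2 cells, the single subunit of the complex that was lower there, although it turned higher under the trimmed mean and the median of ratios.

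The membrane rotor ring of the ATP synthase is built from subunit c, which 3 genes encode as the same mature protein with different targeting sequences. Atp5g2 was at 490 CPM at P3, 305 at P15, 227 at P60 and 405 in AT2 cells, 2.16-fold lower at P60 than at P3 (2.05 to 2.28). Atp5g1 was at 259, 241, 224 and 257 CPM and Atp5g3 at 276, 258, 216 and 225 CPM, so these 2 varied far less. Atp5g2 therefore made up 47.8% (47.1 to 48.4) of the subunit c UMIs at P3, 37.9% at P15, 34.0% (32.6 to 35.4) at P60 and 45.7% (44.6 to 46.8) in AT2 cells. At P60 the 3 genes gave near equal shares in AT1 cells, of 33.6, 34.0 and 32.4%.

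Complex IV, cytochrome c oxidase, has 11 nuclear subunits of general use among these genes, and the 3 with the highest means were Cox6c, Cox4i1 and Cox6a1. Cox4i1, the largest nuclear subunit, was at 1403, 1049, 685 and 1036 CPM at P3, P15, P60 and in AT2 cells, 2.05-fold lower at P60 than at P3 (1.98 to 2.11). It lies at 120668222 to 120674207 of chromosome 8 on the plus strand of GRCm38, where the annotation also places Gm20388 on the same strand and Emc8 on the other. Cox6c was at 1258, 1226, 843 and 1026 CPM. Cox6a1 did not follow them: it was at 764 CPM at P3, 1125 at P15, 792 at P60 and 507 in AT2 cells, which made it the complex IV subunit with the lowest AT2 over AT1 ratio, 0.640 (0.614 to 0.666), a direction that turned under the trimmed mean and the median of ratios.

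The largest difference of any tested nuclear gene over the AT1 ages was that of Cox7a2l, which encodes a factor that joins complexes III and IV into supercomplexes. Cox7a2l was at 620 CPM (610 to 630) at P3, 261 (252 to 269) at P15 and 134 at P60, and at 378 CPM in AT2 cells. The P60 level was 4.64-fold lower than at P3 (4.33 to 4.97), and the AT2 level 2.83-fold higher than in P60 AT1 cells (2.62 to 3.05). It went from 2.27% of the nuclear UMIs of the chain at P3 to 1.00% at P15 and 0.626% at P60, so the difference did not rest on library scaling. After thinning to 2000 UMIs, 69.8% of cells had a Cox7a2l UMI at P3, 39.8% at P15, 21.2% at P60 and 53.9% of AT2 cells. Thinning left out cells with fewer than 2000 UMIs, 210 at P15, 122 at P60 and 32 AT2 cells. Before thinning, over all cells of each class, the shares were 97.0, 66.7, 46.9 and 81.4%. C57BL/6 mice and other strains are known to carry different alleles of this gene, and the labels give the mixed background but no genotype at this locus.

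**Figure D3:**
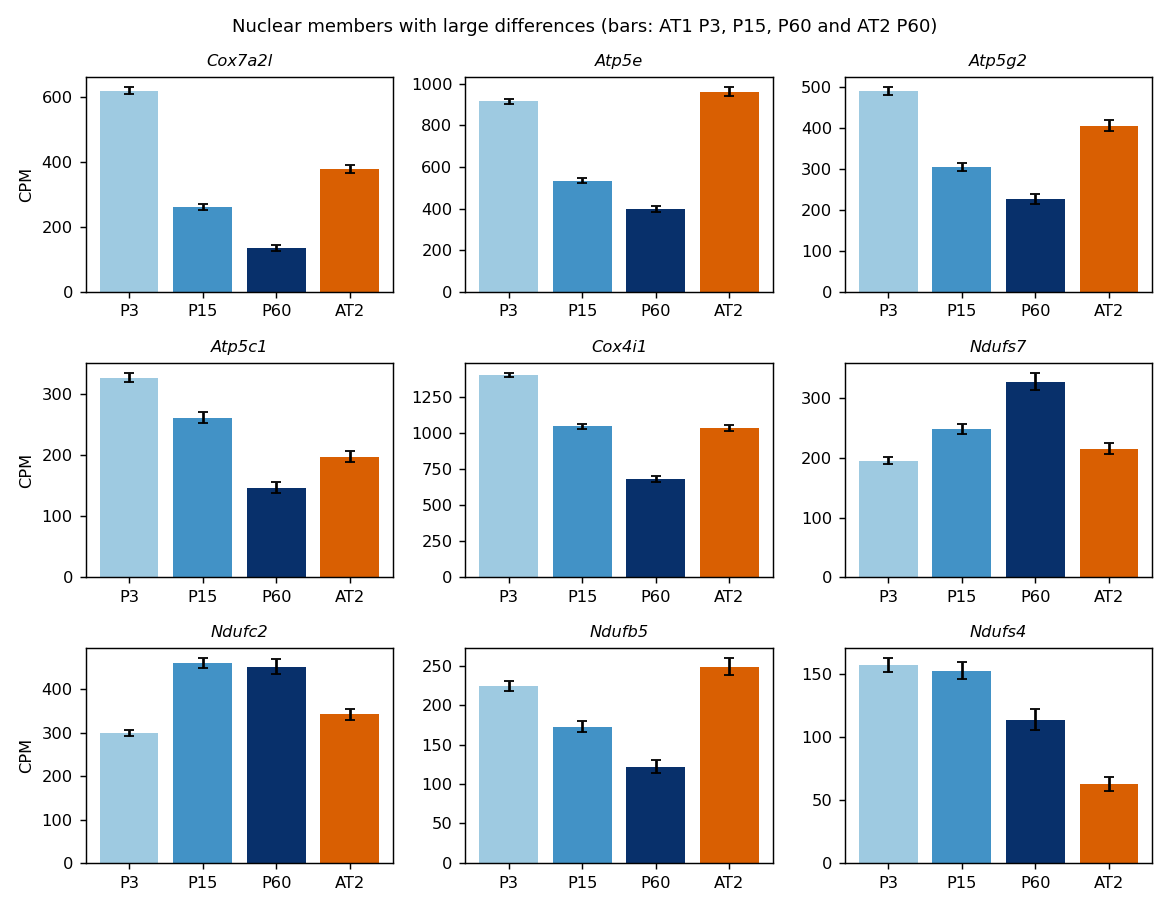
Level in CPM (y axes, each from 0) of 9 nuclear genes in the 3 AT1 libraries by age and the AT2 library, with 1 library per bar and 95% counting intervals. Cox7a2l went from 620 to 134 CPM over the AT1 ages, and Ndufs7 from 195 to 328 CPM.

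Complex III had 8 nuclear subunits under the name rule, which leaves out Cyc1. Uqcrh, the hinge protein at the cytochrome c docking site, was at 610, 464, 351 and 587 CPM and Uqcrfs1, the Rieske iron-sulphur protein, at 164, 136, 91.2 and 106 CPM, and both were over 1.5-fold lower at P60 than at P3. Uqcr11 and Uqcrb, small supernumerary subunits with high means, were at 514, 559, 469 and 747 CPM and at 422, 501, 424 and 395 CPM. Uqcrc1, a large core protein, was at 139, 184, 144 and 84.5 CPM, 1.70-fold lower in AT2 than in AT1 cells (1.54 to 1.88) where the complex as a whole was 1.33-fold higher. Its subunits therefore did not share 1 pattern.

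Complex II, succinate dehydrogenase, links the citric acid cycle to the chain. Its flavoprotein gene Sdha was at 72.0, 86.3, 99.3 and 89.8 CPM and its iron-sulphur protein gene Sdhb at 127, 119, 106 and 91.6 CPM. The 2 membrane anchors went apart. Sdhc was at 58.9, 86.6, 98.4 and 87.2 CPM, 1.67-fold higher at P60 than at P3 (1.52 to 1.84), and Sdhd was at 106.5, 105.5, 64.7 and 48.2 CPM, 1.65-fold lower (1.48 to 1.83). The sum of the 4 subunits hid this, at a ratio of 1.01 (0.967 to 1.06) between P60 and P3.

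In complex I, core and accessory subunits differed. The 7 nuclear core subunits gave 0.114 UMIs per accessory UMI at P3 (0.112 to 0.116), 0.136 at P15, 0.146 at P60 (0.142 to 0.150) and 0.0962 in AT2 cells (0.0937 to 0.0986). Ndufs7, which holds the iron-sulphur cluster next to ubiquinone, was at 195, 249, 328 and 216 CPM. It was 1.68-fold higher at P60 than at P3 (1.597 to 1.773). That was the largest ratio over this span among the nuclear subunits, with the tissue-restricted isoforms left aside. Ndufs8, another iron-sulphur subunit, was at 150.5, 208, 179 and 134 CPM. In AT2 cells 6 of the 7 core genes were lower than in P60 AT1 cells, with a summed ratio of 0.746 (0.721 to 0.772), but 6 of the 7 lay above the median of all tested genes and this direction turned under the trimmed mean and the median of ratios.

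The 29 accessory subunits of complex I ranged widely. Ndufc2, of the membrane arm, was at 300 CPM at P3, 460 at P15, 452 at P60 and 343 in AT2 cells, 1.51-fold higher at P60 than at P3 (1.44 to 1.58). Ndufb5, also of the membrane arm, was at 225, 172, 122 and 249 CPM, 1.84-fold lower at P60 (1.70 to 1.98) and 2.04-fold higher in AT2 than in AT1 cells (1.87 to 2.21). Ndufa2, Ndufa13 and Ndufa3, whose means were the highest of the complex, were at 470, 383, 413 and 736 CPM, at 484, 567, 396 and 471 CPM and at 327, 439, 439 and 527 CPM. Ndufs4, which stabilizes the NADH-binding module, was at 157, 153, 114 and 62.7 CPM, 1.82-fold lower in AT2 than in P60 AT1 cells (1.62 to 2.03), and stayed lower under every scaling tried.

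The 12 assembly factors, which build complexes I and II without staying in them, were a small pool, at a summed 264, 273, 335 and 216 CPM at P3, P15, P60 and in AT2 cells. They made up 0.967% of the nuclear UMIs at P3, 1.05% at P15, 1.57% (1.505 to 1.637) at P60 and 0.824% in AT2 cells. Ndufaf3, a factor of the quinone module of complex I, was at 42.6, 50.7, 78.0 and 48.9 CPM, 1.83-fold higher at P60 than at P3 (1.64 to 2.04), the largest ratio among the tested nuclear genes. Between P15 and P60 the next largest ratios were those of Ndufaf2 and Ndufaf4, at 1.42 and 1.37. In AT2 cells Sdhaf1, which inserts iron-sulphur clusters into complex II, was at 22.5 CPM against 40.7 CPM in P60 AT1 cells and Ndufaf2 at 20.7 against 36.7 CPM. Of the 12 factors, 10 were lower in AT2 cells, with a summed ratio of 0.644 (0.605 to 0.686). That is a log2 ratio of -0.63, near the median of -0.67 for all tested genes. Of the 12, 8 lay below that median and 4 above it, and only 4 were high enough to be tested. The summed ratio turned to a value slightly above 1 under the trimmed mean and the median of ratios.

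AT2 and AT1 cells at P60 were compared next. The nuclear sum was 1.23-fold higher in AT2 cells (1.22 to 1.24) and the mitochondrial sum 1.95-fold higher (1.94 to 1.96), and both directions held under every scaling tried. The median nuclear gene had a log2 ratio of 0.08 while the median of all 4690 tested genes was -0.67, and 78 of 92 nuclear genes lay above the latter. At least 2-fold higher were 5 of 81 tested nuclear genes (6.17%) against 10.9% of all tested genes, and 19 of 81 at least 1.5-fold higher against 14.9%. None was at least 2-fold lower against 36.4% of all, though with Malat1 left out of the total 4 were higher and 5 lower, and 10 of 81 (12.35%) were at least 1.5-fold lower against 53.7% of all. Surfactant and other AT2 transcripts filled much of the AT2 total and Malat1 took 16.0% of the AT1 total against 3.79%, and their part in these ratios was not tested. Against the total, the trimmed mean moved every log2 ratio by 0.68, the median of ratios by 0.71, a total without ribosomal protein, mitochondrial and haemoglobin genes by 0.21 and a total without Malat1 by -0.20. Among all genes 2-fold apart, the share that was higher in AT2 cells was 23.0% on the total and 53.8, 55.7, 31.1 and 16.6% on these scalings.

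By complex, the summed AT2 over AT1 ratio was 1.41 (1.39 to 1.43) for complex V with 14 of 15 subunits higher, 1.33 for complex III, 1.22 for complex IV with 8 of 11 higher, 1.08 for complex I with 18 of 36 higher, and 0.860 for complex II with all 4 lower, though above the median of all tested genes. Complex II turned under the trimmed mean and the median of ratios, and complex I without Malat1. Seen per complex I UMI, complexes V, IV and III were the larger in AT2 cells and complex II the smaller, which needs no scaling. The genes at least 2-fold higher in AT2 cells were Cox7a2l, Atp5e, Ndufb5, Cox6a2 and Cox6b2, and the last 2 entered the test only through their AT2 level.

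The tissue-restricted isoforms of complex IV gave the sharpest contrast between the cell types. Cox6a2, the isoform known from heart and skeletal muscle, was at 0.529, 1.45 and 3.44 CPM in AT1 cells at P3, P15 and P60, from 12, 20 and 22 UMIs, and at 210.5 CPM in AT2 cells, from 1817 UMIs. The AT2 level was 61.2-fold that of P60 AT1 cells (40.3 to 97.9). Cox6a2 made up 29.4% (28.2 to 30.5) of the Cox6a1 and Cox6a2 UMIs in AT2 cells and 0.0691, 0.129 and 0.432% in AT1 cells. At 2000 UMIs per cell, 30.1% of AT2 cells (27.9 to 32.3) had a Cox6a2 UMI, against 0.176, 0.204 and 0.756% of AT1 cells. Before thinning, over all cells of each class, the shares were 52.5% against 0.422, 0.716 and 1.70%. Cox6a2 lies at 128205435 to 128206387 of chromosome 7 on the minus strand, opposite Itgad, which none of the 4 libraries lists.

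Cox6a2 took 34.4 and 23.3% of the Cox6a UMIs in the 2 clusters of the AT2 class and 27.9% in the AT2 cluster of 343 cells that was left out of the class, whose leading genes include the AT1 genes Hopx and Pdpn. In the P60 AT1 library, a cluster of 53 cells led by Sftpc and left out of the AT1 class held 36 Cox6a2 UMIs, 149 CPM and 25.2% of its Cox6a UMIs. The Sftpc-led cluster of 65 cells at P3 reached 11.8 CPM and 2.26%, from 13 UMIs. Its median depth was 16685 UMIs per cell against 7294 in the P3 class, and whether it holds droplets of mixed cell type was not tested. In the clusters of the P60 AT1 class the share ran from 0.317 to 1.32%. The P15 cluster of 64 cells whose leading genes include Sftpc and Scgb1a1 reached 26.3 CPM and 4.17%, also from 13 UMIs. The share was thus of like size in the AT2 library and in the Sftpc-led cluster of the P60 AT1 library, and far lower in the Sftpc-led cluster at P3.

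Cox6b2, an isoform best known from testis, was at 18.0, 14.9, 10.2 and 43.9 CPM, 4.32-fold higher in AT2 than in P60 AT1 cells (3.31 to 5.71), and made up 2.27, 1.83, 1.71 and 7.02% of the Cox6b pair. Cox4i2, an isoform known from lung, was at 2.203, 3.19, 1.095 and 25.3 CPM, or 0.157, 0.303, 0.160 and 2.38% of the Cox4i pair. Cox7a1, another muscle isoform, did not single out the AT2 library: it was at 5.11, 11.2, 14.4 and 15.3 CPM, with shares of 0.880, 2.09, 3.34 and 2.58% of the Cox7a1 and Cox7a2 UMIs. The Cox7a1 share was higher at each later AT1 age, and the interval at P60 (2.70 to 4.08) overlapped that of AT2 cells (2.17 to 3.06). Cox8b, a muscle isoform, was listed only at P3, with 5 UMIs, and Ndufa4l2, a hypoxia-induced relative of Ndufa4, only at P3 and P15, with 9 and 11 UMIs.

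Cox4i2 and Ndufa4l2 were higher in other cells of the AT1 gate, most of all at P15 and, for Cox4i2, P60. In the P15 cluster of 110 cells led by Eln and Acta2, Cox4i2 was at 401 CPM, 26.2% of the Cox4i UMIs, and Ndufa4l2 at 313 CPM. The P3 cluster of 50 cells led by Eln, Mfap4 and Cldn5 was far lower, at 51.7 CPM of Cox4i2, 4.42% of the Cox4i UMIs, and 47.6 CPM of Ndufa4l2. A P15 cluster of 42 cells led by Cldn5 had 186 and 113 CPM, and a P60 cluster of 55 cells with Acta2 and Cldn5 had 371 CPM of Cox4i2, or 30.7%. Against these, the Cox4i2 level of the AT2 class was low. A trace of such cells in the AT2 class was not tested, because 6 of the 7 pericyte and smooth muscle markers and 6 of the 9 endothelial markers that the AT2 table lists are at 0 in every cell of the class, and such genes were not measured.

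**Figure D4:**
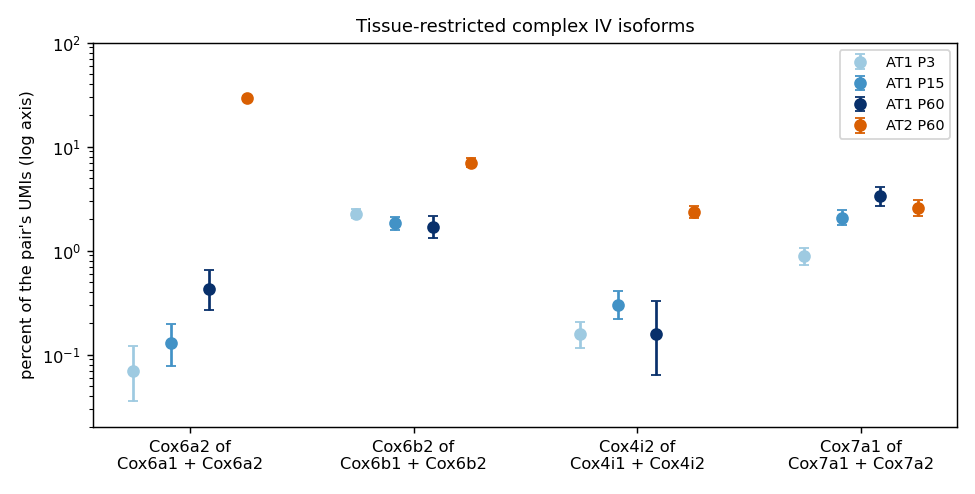
Share of 4 tissue-restricted complex IV isoforms in the UMIs of the pair of genes (percent, log axis), with 95% exact binomial intervals, 1 point per library. Cox6a2 stands at 29.4% in AT2 cells and below 0.5% in each AT1 library, and Cox7a1 shows no such gap.

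The 13 mitochondrial genes are read from both strands of the circular genome as long precursors. Most of them end up on transcripts of their own, but mt-Atp8 with mt-Atp6 and mt-Nd4l with mt-Nd4 stay together on shared transcripts, whose reading frames overlap. The stretches below, from the GRCm38 mitochondrial sequence on the plus strand, show these overlaps in capitals, because UMIs that fall there cannot be told apart by gene. The first spans chrM:7915-7981, with 43 shared bases at 7927 to 7969, and the second chrM:10155-10185, with 7 shared bases at 10167 to 10173.
mt-Atp8 and mt-Atp6: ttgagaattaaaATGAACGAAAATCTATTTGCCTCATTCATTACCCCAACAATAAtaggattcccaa
mt-Nd4l and mt-Nd4: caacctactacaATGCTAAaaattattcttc

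In AT1 cells the mitochondrial sum was 1.39-fold higher at P60 than at P3 (1.38 to 1.40), all 13 genes were higher, and the directions of the summed complexes held under every scaling tried, although those of mt-Co1, mt-Co2, mt-Nd1, mt-Nd2 and mt-Nd3 turned under at least 2 of 4 scalings. The genes were far from uniform. mt-Cytb, the complex III subunit that binds quinone, was at 2742, 4768, 5142 and 6489 CPM, 1.88-fold higher at P60 than at P3 (1.85 to 1.90). mt-Co3 was at 3712, 6009, 6014 and 12088 CPM, with its whole AT1 difference between P3 and P15. By contrast mt-Co1, the catalytic subunit of complex IV, was at 3381, 4368, 3429 and 10228 CPM, and mt-Nd2 of complex I at 1066, 885, 1079 and 3657 CPM, so that P3 and P60 were within counting error of each other for both. mt-Atp6, mt-Nd1, mt-Nd4 and mt-Co2 were at 4243, 5819, 6116 and 9477 CPM, at 2497, 3150, 2803 and 6273 CPM, at 1720, 2492, 2713 and 4763 CPM and at 1842, 2340, 2086 and 4385 CPM.

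Of the 12 mitochondrial genes tested, the 2 (16.7%, against 11.2% of all tested genes) that were at least 2-fold higher at P60 than at P3 were the upstream partners of the shared transcripts. mt-Atp8 was at 51.4, 48.7, 160 and 230 CPM, 3.12-fold higher (2.87 to 3.40), and mt-Nd4l at 142, 156, 287 and 338 CPM, 2.02-fold higher (1.90 to 2.14). Their partners mt-Atp6 and mt-Nd4 were 1.44-fold and 1.58-fold higher over the same span. Each pair shares a transcript and the chemistry counts transcript ends. UMIs placed in the upstream gene therefore cannot be read as the level of a separate transcript, and why the partners differed was not tested. mt-Nd6, the only protein gene on the other strand, was too low to be tested between these ages, at 9.21, 9.43, 21.7 and 34.6 CPM, a ratio of 2.36. mt-Nd3 and mt-Nd5 were at 377, 361, 434 and 1136 CPM and at 226, 210, 268 and 536 CPM. As a share of mitochondrial UMIs, mt-Cytb went from 12.5% at P3 to 16.8% at P60 and was 10.9% in AT2 cells, whereas mt-Co1 went from 15.4 to 11.2% and was 17.1%.

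In AT2 cells all 13 mitochondrial genes were higher than in P60 AT1 cells, 7 of 13 (53.85%) at least 2-fold, against 10.9% of all tested genes. mt-Nd2 was 3.39-fold (3.30 to 3.48) and mt-Co1 2.98-fold higher (2.94 to 3.03), and mt-Nd4l and mt-Cytb only 1.18-fold and 1.26-fold. By complex the sums were 2.20-fold higher for complex I, 1.26-fold for complex III, 2.32-fold for complex IV and 1.55-fold for complex V. Set against the nuclear subunits of the same complex, AT1 cells at P60 and AT2 cells had 0.956 and 1.94 mitochondrial UMIs per nuclear UMI for complex I, 2.05 and 3.89 for complex IV, 1.36 and 1.49 for complex V and 2.28 and 2.17 for complex III. The gap between the cell types was thus in complexes I and IV, small in complex V and in the opposite direction in complex III. The deposited AT2 cells reached mitochondrial shares of 15.0% and the P60 AT1 cells 9.94%, and with cells over 9% left out the log2 ratio of the mitochondrial sum was 0.88 in place of 0.96, and 0.65 with cells over 5% left out.

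Cells varied within each library. After thinning to 2000 UMIs, the nuclear genes took a median of 2.7, 2.5, 2.05 and 2.6% of a cell's UMIs at P3, P15, P60 and in AT2 cells, and the mitochondrial genes 2.10, 2.85, 2.95 and 5.85%. The standard deviation over cells of the mitochondrial share was 0.831, 1.68, 1.78 and 2.19 percentage points, where counting alone gives 0.333, 0.4001, 0.404 and 0.5405. The rank correlation over cells between nuclear and mitochondrial shares was 0.06, -0.00, -0.28 and -0.07 in 2845, 2445, 1058 and 1653 cells, near 0 in 3 libraries and negative in the P60 AT1 library. Between the nuclear share and the share of ribosomal protein transcripts it was 0.05, 0.35, 0.75 and 0.20. These are descriptions of cells from 1 library each that share depth and total, and the mitochondrial share ran against the UMIs of the cell, at -0.21, -0.46, -0.52 and -0.43.

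The P60 AT1 class was the least even. Its 5 clusters ran from 10328 to 34847 CPM of nuclear genes and from 24336 to 53913 CPM of mitochondrial genes, where the 6 clusters of the P3 class ran from 25925 to 28624 and from 19412 to 25290 CPM. The lowest nuclear level came from 167 cells led by Lars2 and Neat1, with 5.22 mitochondrial per nuclear UMI, 27.5% Malat1 and a median of 2529 UMIs. The highest came from 80 cells with 1.28% Malat1 and a median of 1902 UMIs. At P15, clusters of 297 and 285 cells with a median of 3085 and 2754 UMIs had 48305 and 49618 CPM of mitochondrial genes. Without the clusters of low UMI count, which held 922 cells at P15 and 244 at P60, the log2 ratio of P60 over P3 was -0.33 for the nuclear sum and 0.38 for the mitochondrial sum, in place of -0.36 and 0.47. For P15 over P3 the mitochondrial sum went from 0.48 to 0.29 without them, and the median mitochondrial gene from 0.22 to 0.007 above the median of all tested genes.

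**Figure D5:**
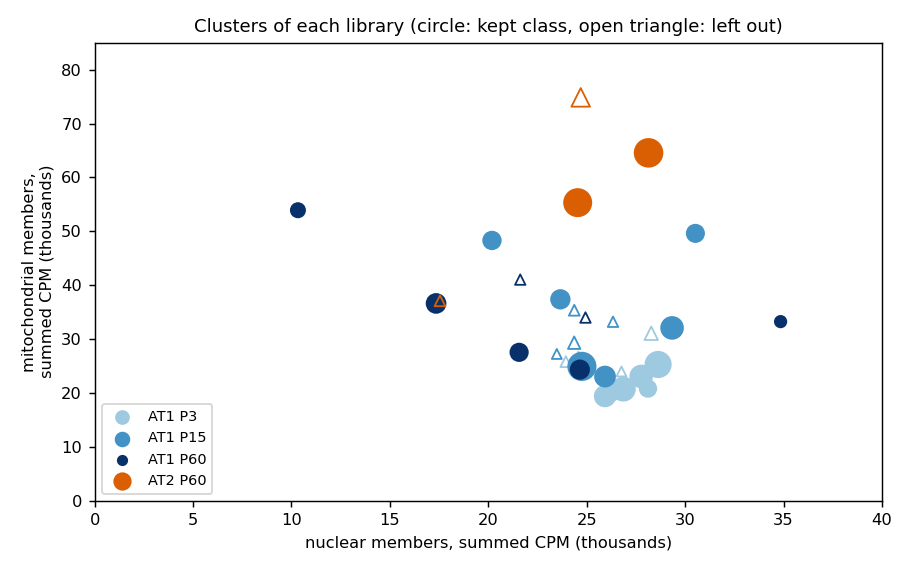
Summed nuclear (x axis) and mitochondrial (y axis) CPM of the chain, with axes in kilo-CPM, for each cluster of cells, with larger symbols for larger clusters. Circles are clusters of the sorted type and open triangles those left out; the 2 AT2 circles lie above all others at 55317 and 64557 CPM, and the P60 AT1 circles are the most spread.

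The other genes of mitochondrial energy supply were read from fixed lists. The carriers and partners of the chain were the list nearest to the nuclear genes, with summed ratios of 1.03, 0.760 and 0.785 for P15 over P3, P60 over P15 and P60 over P3, and 1.23 for AT2 over AT1. This list also holds Cyc1, a subunit of complex III, and Usmg5 and 2010107E04Rik, of complex V, which the name rule leaves out. Between P15 and P60, 24 of its 29 genes were lower. Slc25a5, the adenine nucleotide carrier, was at 485 CPM at P15 and 218 CPM at P60 and Ucp2, an inner membrane carrier, at 516 and 209 CPM. Atpif1, the inhibitor of ATP synthase, was at 485 CPM at P3 and 223 CPM at P60. In AT2 cells Slc25a4, another nucleotide carrier, was at 137 CPM against 403 CPM in AT1 cells, while Chchd10 was at 1056 against 484 CPM and Etfb, of the electron transfer flavoprotein, at 434 against 198 CPM.

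Citric acid cycle genes gave 1.08, 0.856, 0.926 and 0.989 for the 4 comparisons, and fatty acid oxidation genes 1.05, 0.853, 0.899 and 1.08. Glycolysis gave 1.22, 0.881, 1.08 and 0.889 with members that went apart. Aldoa, the aldolase, was at 213 CPM at P3, 543 CPM at P60 and 244 CPM in AT2 cells, whereas Ldha and Ldhb, the lactate dehydrogenase subunits, were at 344 and 310 CPM in AT2 cells against 152 and 101 CPM in P60 AT1 cells. Mitochondrial import genes gave 0.856, 1.06, 0.908 and 0.885, and the mitochondrial ribosome 1.01, 1.05, 1.06 and 0.746, with 66 of its 76 measured genes lower in AT2 cells but 54 of the 76 above the median of all tested genes there. The assembly factors that the name rule leaves out, which include 4 factors of complex II that it takes in, gave 1.16, 1.16, 1.35 and 0.771, with 31 of 39 higher at P60 than at P3 and 22 of 39 above the median of all tested genes. Their leading gene Cox17, the copper chaperone of complex IV, was at 254, 393, 548 and 289 CPM. The list of mitochondrial DNA upkeep and transcription, which also holds Lars2, a gene of neither role, gave 1.06, 1.57, 1.68 and 0.494. Lars2 was at 19.7, 42.2, 218 and 12.1 CPM, and without it the same list gave 0.998, 1.14, 1.15 and 0.733. Cytoplasmic ribosomal protein genes gave 0.363, 0.644, 0.234 and 3.09, with 83 of 87 lower at P60 than at P3 and 83 of 87 higher in AT2 cells. On the other scalings the direction for AT2 over AT1 held for the carriers, for DNA upkeep and transcription and for the cytoplasmic ribosome, and turned under at least 1 for the other lists. Without Lars2 the DNA upkeep list also turned, for AT2 over AT1 under the trimmed mean and the median of ratios and for P60 over P3 under the trimmed mean and the total without ribosomal protein genes. For P60 over P3 it turned for the citric acid cycle, glycolysis, import, fatty acid oxidation and the mitochondrial ribosome, for P60 over P15 for import and the mitochondrial ribosome, and for P15 over P3 for the carriers, the citric acid cycle, DNA upkeep, fatty acid oxidation and the mitochondrial ribosome.

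The promoters of the nuclear genes were read from RefSeq (GRCm38.p6), in windows of 300 bases around the annotated start, which matched 76 of the 94. Transcripts of ribosomal proteins are known to begin in a run of C and T bases, so such runs of at least 7 that touch the 5 bases on either side of the start were counted. They were found in 11 of 76 nuclear genes (14.5%), in 28 of 65 ribosomal protein genes (43.1%) and in 1440 of 8402 coding genes listed in both the P3 and P60 AT1 libraries (17.1%). Among the 13 matched genes at least 1.5-fold lower at P60 than at P3, 5 had such a run (38.5%), and among the other 55 tested genes 6 had one (10.9%). Over the 68 tested genes with a window, however, the rank correlation of the length of the run with the log2 ratio of P60 over P3 was -0.02. It was -0.06, -0.02 and 0.07 in the other comparisons (69, 69 and 68 genes). These genes share libraries, and no test was made. The 5 are Atp5e, Atp5g2, Cox7a2l, Ndufb5 and Uqcrfs1. Ndufs7 and Ndufc2, both at least 1.5-fold higher at P60, are shown beside 3 of them. The 6 others with such a run are Cox7c, Ndufa5, Ndufb10, Sdhaf1, Sdhaf4 and Uqcrc1. Their log2 ratios of P60 over P3 were -0.56, 0.38, -0.01, 0.11, 0.48 and 0.05. Ndufaf3, whose ratio was the largest of the tested genes, has a run of 6 and is not shown. Each line runs from 45 bases before the start through 15 bases of the transcript. Capitals mark the longest run of C and T that touches the 5 bases on either side of the start, and a shorter run can lie nearer. The lines are from chr2:174464087-174464146 (minus strand), chr15:102671033-102671092 (minus), chr17:83514319-83514378 (minus), chr10:80249404-80249463 (plus) and chr7:97399958-97400017 (plus). A run in these letters describes the sequence alone.
Atp5e: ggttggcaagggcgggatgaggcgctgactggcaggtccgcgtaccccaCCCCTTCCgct
Atp5g2: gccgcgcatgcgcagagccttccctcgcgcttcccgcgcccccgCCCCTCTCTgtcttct
Cox7a2l: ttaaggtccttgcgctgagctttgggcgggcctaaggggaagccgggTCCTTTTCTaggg
Ndufs7: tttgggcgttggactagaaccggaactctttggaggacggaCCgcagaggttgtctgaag
Ndufc2: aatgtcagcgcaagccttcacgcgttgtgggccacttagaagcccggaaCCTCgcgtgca

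Short motifs were searched on both strands of the same windows, with no requirement on position. CCGGAAG, the core that ETS factors such as GABP bind, was in 26.3% of the nuclear genes and 21.5% of the coding genes. GCATGCG, the core of the NRF1 site, was in 17.1 and 7.60%, and AAGATGG, the core of the YY1 site, in 13.2 and 8.9%. Such a match is a description of the letters, not of a bound site. In the GENCODE annotation 92 nuclear genes were placed, on 19 chromosomes, with a median transcript length of 921 bases against 2567 for 21870 coding genes. Of these 92, 5 overlap another coding gene on the same strand, Cox4i1, Ndufa13, Ndufb2, Ndufb8 and Ndufb9, and 34 have a gene on the opposite strand. Many nuclear genes of the chain also have processed pseudogenes of near identical sequence, and neither the treatment of such reads nor the use of strand in the counting is given in the sources used here.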

How the data were processed

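Each library was deposited as a table of genes by cells whose values, as the authors deposited them, are the natural log of 1 plus the UMIs of a gene scaled to 10000 per cell. The submitters' processing notes name Cell Ranger 1.3.1, Seurat 2.0.0, mm10 and hg19, and do not say what hg19 served for. The scale step was undone per cell, and every value came out as a whole UMI count within a tolerance of 0.05. The highest mitochondrial share of any deposited cell was 8.95, 10.0, 9.94 and 15.0% in the 3 AT1 libraries by age and the AT2 library.

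Cells of each library were clustered without the 107 genes (Scanpy 1.11.5, Leiden with igraph 0.11.9, 2000 variable genes, 20 components, 15 neighbours, resolution 0.5). A cluster entered the class of its sorted type when fewer than 2 of its 10 leading genes marked another cell type and at least 10 own markers were detected in 25% of its cells, and single cells with 3 or more markers of endothelial, mesenchymal or immune cells were set aside. These limits were set after seeing the data. An AT2 cluster of 343 cells, led by Hopx and Pdpn, was thereby left out. No doublet caller was run.

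UMIs were summed per class. With 1 library per group no test was made. Ratios carry exact conditional Poisson intervals and shares exact Clopper-Pearson intervals, at 95%, for counting error only. A gene was tested against the 2-fold and 1.5-fold limits when both libraries listed it, with 30 UMIs over both and a mean of 25 CPM, and the recovery of known folds was checked on simulated counts. The AT2 table also lists genes at 0 in every cell, which were not measured. Named genes are the mitochondrial genes, the 3 subunits of highest mean per complex, genes 2-fold apart, the 3 highest and 3 lowest ratios per comparison and the isoform groups, and from other lists the most abundant and the 2-fold genes. Other names were chosen after their values were seen. The genes and the lists were chosen with earlier results of these data known. Coordinates are from the GENCODE annotation of GRCm38 and promoters from RefSeq (GRCm38.p6).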

Additional observations from a re-analysis of the deposited data

How the results depend on the processing

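Each value below is a log2 ratio of a summed level, in the order P15 over P3, P60 over P15, P60 over P3 and AT2 over AT1 unless said otherwise. With the class and the total as reported, the nuclear sum was at -0.07, -0.28, -0.36 and 0.30 and the mitochondrial sum at 0.48, -0.003, 0.47 and 0.96. No direction of the nuclear sum turned under any alternative, and the mitochondrial sum turned only for P60 over P15, where its reported interval includes no difference.

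For the nuclear sum, the trimmed mean of log ratios gave -0.12, -0.41, -0.58 and 0.98, the median of ratios -0.12, -0.42, -0.54 and 1.01, a total without ribosomal protein, mitochondrial and haemoglobin genes -0.28, -0.32, -0.60 and 0.51, and a total without Malat1 -0.036, -0.13, -0.17 and 0.10. The mean over cells gave -0.082, -0.32, -0.40 and 0.34 and cells thinned to 2000 UMIs -0.083, -0.34, -0.42 and 0.36. Starting at P60 over P15, all cells gave -0.26, -0.34 and 0.27, resolution 0.25 gave -0.31, -0.38 and 0.31, and cells at or under 5% mitochondrial UMIs -0.24, -0.31 and 0.25. Resolution 1 gave 0.29 for AT2 over AT1. Without clusters of low UMI count the sum was at -0.0498 for P15 over P3, -0.33 for P60 over P3 and 0.27 for AT2 over AT1.

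For the mitochondrial sum, the trimmed mean gave 0.43, -0.13, 0.25 and 1.64, the median of ratios 0.43, -0.14, 0.29 and 1.68, the total without ribosomal protein, mitochondrial and haemoglobin genes 0.27, -0.044, 0.23 and 1.18, and the total without Malat1 0.51, 0.15, 0.66 and 0.77. The mean over cells gave 0.60, 0.035, 0.64 and 0.82, thinned cells 0.55, 0.027, 0.57 and 0.89, cells at or under 5% mitochondrial UMIs 0.29, -0.014, 0.28 and 0.65, and the class without clusters of low UMI count 0.29, 0.097, 0.38 and 1.06. All cells gave 0.42 for P15 over P3, 0.42 for P60 over P3 and 1.00 for AT2 over AT1, and cells at or under 9% gave 0.46, 0.46 and 0.88 for these. Resolutions 0.25 and 1 gave 1.02 and 1.04 for AT2 over AT1.

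Nuclear genes at least 2-fold apart numbered 1, 0, 5 and 5. With no CPM minimum they were 3, 2, 8 (2 higher) and 10 (4 lower), and at 1.5-fold 4, 6, 20 and 29. For P60 over P15, resolution 0.25, the trimmed mean, the median of ratios, the total without ribosomal protein, mitochondrial and haemoglobin genes, thinning and the class without clusters of low UMI count gave 1 each. For P60 over P3, the trimmed mean gave 8, the total without ribosomal protein, mitochondrial and haemoglobin genes 8 and the total without Malat1 3 (1 higher and 2 lower, where 5 lower and none higher were reported). For AT2 over AT1 the trimmed mean and the median of ratios gave 32 each, the total without ribosomal protein, mitochondrial and haemoglobin genes 11, all higher, and the total without Malat1 9 (4 higher and 5 lower, where 5 higher and none lower were reported). Thinned cells gave 6 higher and 1 lower. Scalings multiply all genes of a comparison by 1 factor and so leave the ratios between complexes and between genomes as reported; the cause of the other shifts was not tested. Among all genes 2-fold apart, the share that was higher was 58.4, 50.7 and 59.9% in the 3 AT1 comparisons on the total. It was 53.5, 35.1 and 41.3% under the trimmed mean, 53.5, 33.8 and 44.6% under the median of ratios, 37.4, 45.4 and 41.2% on the total that lacks these 3 kinds of genes and 62.0, 68.9 and 74.0% without Malat1. Leaving out cells over 9% and clusters of low UMI count were alternatives chosen after seeing the data. No paired analysis was possible because each group has 1 library, so no library could be left out either. Depth limits the rare genes: Cox6a2 in AT1 cells rests on 12 to 22 UMIs.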

Other observations

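The 343 AT2-library cells left out of the AT2 class, whose leading genes include Hopx, Pdpn and Igfbp2, had 24693 CPM of nuclear genes and 74852 CPM of mitochondrial genes, or 3.03 mitochondrial UMIs per nuclear UMI, against 2.25 and 2.29 in the 2 clusters of the class. Their median depth was 4413 UMIs. In the P15 AT1 class, the cluster led by Neat1 and Lars2 had 2.39 mitochondrial per nuclear UMI at 11.3% Malat1, and the cluster led by Krtap17-1 and Cyp2b10 1.01 at 6.6%.

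Across the tested nuclear genes, the rank correlation of transcript length with the log2 ratio was 0.10, 0.18, 0.19 and -0.36 in the 4 comparisons, over 81, 81, 80 and 81 genes, beside 0.06, 0.29, 0.23 and -0.22 over all tested genes. Tested coding genes no longer than 1000 bases, without the cytoplasmic ribosomal protein genes and the genes of the chain, had a median log2 ratio of 0.02, -0.06, -0.02 and -0.24. These are correlations across genes of the same libraries, and genes are not independent replicates.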
